A study of Mus musculus with 6 samples.

Results

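The genes described here encode the subunits, regulators and assembly factors of the mouse proteasome. They were taken as every gene of the deposited count table whose symbol begins with Psma, Psmb, Psmc, Psmd, Psme, Psmf or Psmg followed by a digit. The rule found 50 of the 24012 genes in the table, and no measured value entered it. One of the 50, Psmc3ip, matches by name only: its product is a partner of the meiotic recombinases and no proteasome subunit, and its values are given apart. The other 49 comprise 8 alpha and 7 beta subunit genes of the core particle, 4 beta genes of the immune and thymic forms, 6 ATPase and 3 other genes of the regulatory particle's base, 8 genes of its lid, 6 genes of activators and of an inhibitor, and 7 genes of assembly factors.

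The study measured dimethylation and trimethylation of lysine 79 on histone H3 (H3K79me2 and H3K79me3) by ChIP-seq, that is, by sequencing the DNA that an antibody against the mark pulls down from chromatin. The cells were primary hematopoietic progenitors taken from the bone marrow of mice, and a retrovirus made them express MLL-AF9 in its wild-type form (WT) or with the change D544R or D546R. All 3 genotypes thus carried a leukemia fusion protein driven by a retrovirus, and no untransduced group was used here. The labels give neither the age nor the strain of the mice, nor how many animals were pooled. Each genotype and mark had 1 library, so the 6 groups have no replicates, no difference below has a replicate check and no p-value was computed. A lower mark in each cell and fewer cells that carry the mark cannot be told apart in such bulk material.

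The proteasome is a barrel-shaped protease that degrades proteins tagged with ubiquitin. Its core particle is built from rings of alpha subunits, which form the gate, and rings of beta subunits, of which Psmb5, Psmb6 and Psmb7 carry the catalytic sites. The regulatory particle sits on the end of the barrel: the ATPases of its base unfold substrates, and its lid removes ubiquitin. In immune cells Psmb8, Psmb9 and Psmb10 replace the constitutive catalytic subunits, and Psmb11 is a catalytic form of the thymic cortex. H3K79 is methylated by DOT1L, which the AF9 part of MLL-AF9 can recruit, and the marks lie over the bodies of transcribed genes. The title of the study names the recruitment of DOT1L as its subject.

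The libraries held between 3558329 and 5993741 counts in H3K79me2 and between 5207395 and 6652571 in H3K79me3. Counts were divided by size factors computed within each mark, and these normalised counts were divided by the length of the counted region wherever levels of different genes are compared. In H3K79me2 the median level of a progenitor marker list was 2.81 times, and of a myeloid list 2.06 times, the median of all genes in WT. Lists for lymphoid, erythroid and stromal cells stood at 1.17, 0.585 and 0.744 times that median. In the H3K79me3 library of D546R, progenitor and myeloid markers stood at 1.70 and 1.90 times the median of all genes. Erythroid and stromal markers stood close to these, at 1.43 and 1.46, and lymphoid markers far below, at 0.261. The 3 H3K79me3 libraries differed in empty regions: 17.6% of short autosomal regions held no count in WT, 16.2% in D544R and 33.5% in D546R. If counts spread evenly per kb over such regions, these shares give 9.73, 8.12 and 18.6 counts per fragment, against 4.05, 3.26 and 4.78 in H3K79me2. Uneven marking of the regions would raise the numbers too, and the D546R library held counts below 18.6, such as 4 at Psme1. They are rough scale factors, and no duplicate rate was measured. Each log2 ratio below carries a 95% interval for counting error (exact conditional binomial). Where stated, a wider fragment interval was computed after dividing the counts by these factors. Both cover counting error only, and a change of a mark by the same factor at every gene would be removed by the scaling.

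Proteasome genes carried more H3K79me2 than the typical gene in all 3 genotypes. Their median level was 7.95 normalised counts per kb in WT, 8.12 in D544R and 9.54 in D546R, against 2.91, 2.94 and 2.76 for all genes. The median member stood at the 85.2, 85.3 and 85.6 percentile of all genes, and 44, 42 and 47 of the 50 members lay above the median of all genes. The excess was smaller in H3K79me3, with a median of 7.02, 7.04 and 6.96 normalised counts per kb against 4.70, 4.86 and 4.83 for all genes. There 35, 34 and 34 of the 50 members lay above the median gene. Against the summed level of 30 genes listed as silent in blood progenitors, the H3K79me2 median of the members was 3.52, 3.86 and 4.76 times as high in WT, D544R and D546R. In H3K79me3 the same ratio was 2.00, 1.62 and 1.24, and the members stood least above the silent genes in the D546R library. The silent list itself stood at 3.51, 4.35 and 5.62 normalised counts per kb in H3K79me3. The results that change with this list as the reference are given below.

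**Figure D1:**
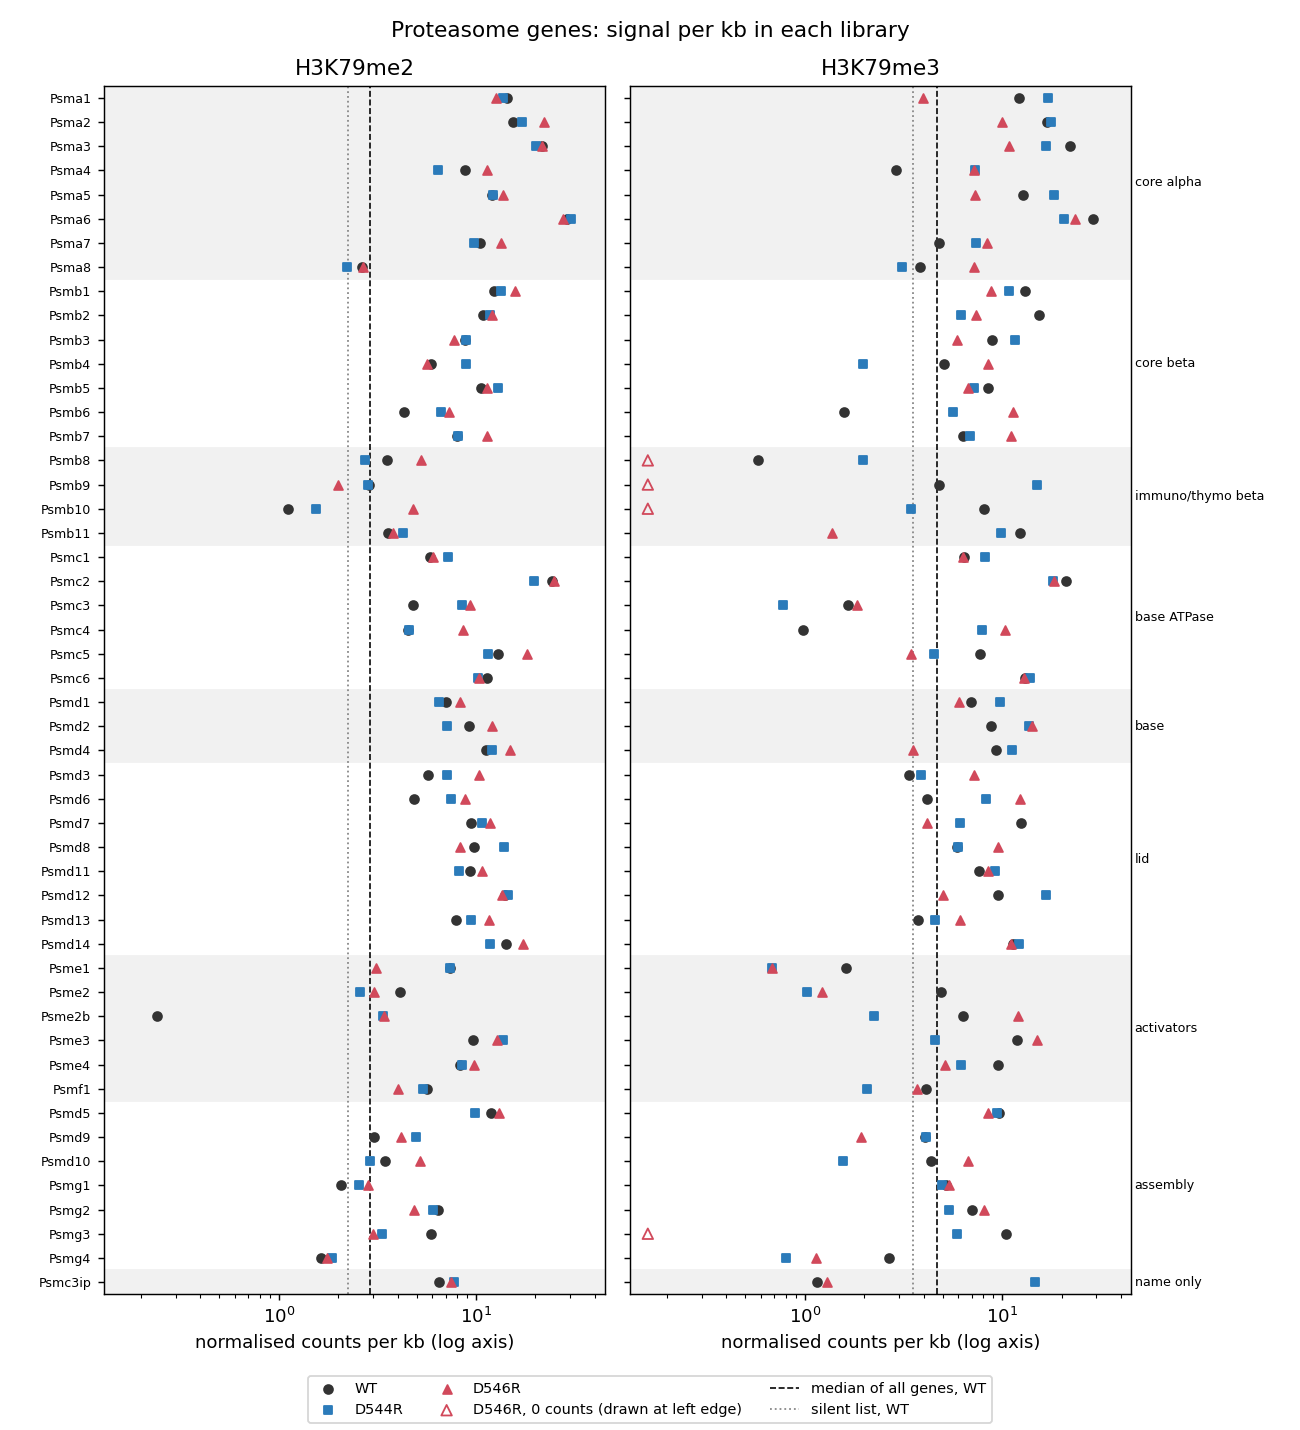
Normalised counts per kb (log axis) of the 50 proteasome genes in each library, H3K79me2 on the left and H3K79me3 on the right, with 1 point per library and genes grouped by role. The core and lid genes lie mostly to the right of the dashed median of all genes in WT. In H3K79me2 the immune and thymic beta genes lie on both sides of that line. In the D546R H3K79me3 library 4 genes have 0 counts (open triangles).

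The alpha subunit genes were the role with the highest median H3K79me2 in all 3 genotypes. In H3K79me3 they led in WT and D544R, at 12.5 and 16.9 normalised counts per kb, but not in D546R, where they had 7.82 and the constitutive beta genes 8.49. Their median H3K79me2 level in WT was 13.2 normalised counts per kb, 4.52 times the median of all genes. Psma6 led every library of both marks among the members, with 28.8, 30.2 and 27.4 normalised counts per kb of H3K79me2 in WT, D544R and D546R and 28.7, 20.7 and 23.4 of H3K79me3. Psma3, with 21.7, 20.0 and 21.7 of H3K79me2, was the next alpha gene in WT and D544R, and Psma2 was in D546R at 22.0. The exception was Psma8, the alpha subunit of the testis-specific proteasome that takes the place of Psma7. Psma8 had 2.63, 2.23 and 2.66 normalised counts per kb of H3K79me2, below the median of all genes in all 3 genotypes, while Psma7 had 10.5, 9.78 and 13.4.

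The constitutive beta genes had a median of 8.80 normalised counts per kb of H3K79me2 in WT, ranging from 4.29 at Psmb6 to 12.3 at Psmb1. Among the ATPases, which pull substrates into the core, Psmc2 was highest in WT at 24.2 and Psmc4 lowest at 4.50. Of the other base genes, Psmd4, which codes for a ubiquitin receptor, had 11.3 and Psmd1, a scaffold subunit, had 7.07. Within the lid the highest was Psmd14, the deubiquitinase, at 14.1, and the lowest Psmd6 at 4.85. Activators and assembly factors were nearer to the typical gene, with medians of 6.51 and 3.47 normalised counts per kb. The assembly genes ranged from 1.64 at Psmg4 to 11.8 at Psmd5, a chaperone of the base.

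In WT, members with more H3K79me2 per kb also tended to have more H3K79me3 (Spearman's rho 0.70 across the 50 genes, 0.46 across all genes). This is a description across genes, which are not replicates and share their region lengths between the marks. Some members went against it. Psmc3 had 4.80, 8.45 and 9.35 normalised counts per kb of H3K79me2 but 1.65, 0.77 and 1.84 of H3K79me3, below the silent list. Psme1 had 7.38, 7.35 and 3.12 of H3K79me2 and 1.62, 0.68 and 0.68 of H3K79me3.

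The promoters of the members had features in common that the choice by name did not use. A RefSeq window of 250 bases before the start site was found for 42 of the 50 members, on GRCm38.p6, and was read for 7 motifs on both strands. The 42 windows held a median of 14.5 CpG dinucleotides, against 11 for the 16720 genes of the count table with a window. The ETS core CCGGAAG was in 13 of 42 (31.0%), compared with 10.1% of these genes. The GC box GGCGGG was in 29 (69.0%, against 45.7%), and the palindrome of NRF1 in 6 (14.3%, against 5.89%). The CCAAT box was in 15 (35.7%, against 39.2%) and the core of the antioxidant response element, TGACNNNGC, in 5 (11.9%, against 12.4%). The core of the interferon-stimulated response element was in 3 (7.14%, against 3.38%) and the gamma interferon activation site TTCNNNGAA in 2 (4.76%, against 7.89%). The shares were not matched for CpG content, which was higher in the members. A match is a description of letters and shows no binding.

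6 of these windows are printed because the H3K79me3 results below turn on their genes: Psma1 and Psma3, the alpha genes whose H3K79me3 was at least 2-fold lower in D546R than in WT, and the immune genes Psmb8, Psmb9 and Psmb10 beside Psmb5, the constitutive counterpart of Psmb8. Each runs 5′ to 3′ on the strand of the gene, and capitals mark every match to one of the 7 motifs. The windows lie at chr7:114276117-114276366 (minus strand), chr12:70974373-70974622 (plus strand), chr14:54617996-54618245 (minus strand), chr17:34197945-34198194 (plus strand), chr17:34187331-34187580 (minus strand) and chr8:105938393-105938642 (minus strand).
Psma1: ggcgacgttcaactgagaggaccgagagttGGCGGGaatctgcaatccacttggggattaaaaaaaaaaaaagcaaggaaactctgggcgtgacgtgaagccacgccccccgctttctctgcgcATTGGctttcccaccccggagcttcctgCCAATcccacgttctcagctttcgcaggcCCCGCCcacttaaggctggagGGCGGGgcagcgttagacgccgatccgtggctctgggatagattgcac
Psma3: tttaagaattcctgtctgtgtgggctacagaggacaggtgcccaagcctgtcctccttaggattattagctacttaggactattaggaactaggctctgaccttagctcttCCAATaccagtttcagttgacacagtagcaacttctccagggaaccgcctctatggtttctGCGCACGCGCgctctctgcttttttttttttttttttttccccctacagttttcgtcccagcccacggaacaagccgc
Psmb5: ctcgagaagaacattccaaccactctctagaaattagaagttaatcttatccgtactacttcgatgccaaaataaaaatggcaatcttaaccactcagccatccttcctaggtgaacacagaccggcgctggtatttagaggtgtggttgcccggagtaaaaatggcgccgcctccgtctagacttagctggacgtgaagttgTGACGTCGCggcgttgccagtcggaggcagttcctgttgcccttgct
Psmb8: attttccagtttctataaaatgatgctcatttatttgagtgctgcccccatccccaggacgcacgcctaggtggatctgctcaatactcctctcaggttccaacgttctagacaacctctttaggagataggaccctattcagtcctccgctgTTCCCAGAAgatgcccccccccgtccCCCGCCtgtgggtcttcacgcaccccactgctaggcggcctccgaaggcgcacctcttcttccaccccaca
Psmb9: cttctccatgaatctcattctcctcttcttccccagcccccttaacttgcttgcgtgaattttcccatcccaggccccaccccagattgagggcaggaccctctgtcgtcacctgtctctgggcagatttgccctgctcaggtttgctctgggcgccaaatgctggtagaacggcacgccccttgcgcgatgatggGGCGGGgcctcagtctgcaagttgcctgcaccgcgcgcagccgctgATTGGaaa
Psmb10: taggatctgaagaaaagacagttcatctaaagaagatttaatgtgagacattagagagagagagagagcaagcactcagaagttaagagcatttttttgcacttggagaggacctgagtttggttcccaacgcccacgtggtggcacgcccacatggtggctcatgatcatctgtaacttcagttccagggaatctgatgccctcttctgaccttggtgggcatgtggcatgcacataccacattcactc
The capitals are GC boxes and CCAAT boxes in Psma1 and Psmb9, a CCAAT box and an NRF1 palindrome in Psma3, the antioxidant response element core in Psmb5, and a gamma interferon activation site and a GC box in Psmb8. The Psmb10 window has no match and 3 CpG dinucleotides, compared with 18 in Psma1.

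For the comparisons between genotypes a gene was taken as changed when its normalised counts differed at least 2-fold, its counting interval left out equality, and its mean over the 3 libraries of a mark was at least 100 normalised counts. This is a rule of size and no significance test. In H3K79me2, 26 of the 50 members (52.0%) reached that mean, compared with 37.1% of all genes. In H3K79me3 19 did (38.0%, against 45.1% of all genes), all of them among the 26. The members left out had short regions for the most part, so the comparisons describe the longer genes. The comparisons of D544R and D546R with WT share the WT library, and each shares a mutant library with the comparison of the mutants.

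No proteasome gene passed the 2-fold rule in H3K79me2. In D546R against WT, 0 of 26 were lower and 0 higher, where 0.865% and 0.887% of all genes tested were. In D544R against WT, 0 were lower (0.0112% of all genes) and 0 higher (0.0337%). Between the mutants, D546R against D544R, 0 were lower (0.876%) and 0 higher (0.775%). These shares of all genes amount to less than 1 gene in 26. The median log2 ratio of the members was 0.22 in D546R against WT, compared with 0.07 for all genes. Of the 26 members 19 lay above 0, where 57.6% of all genes did. In D544R against WT it was 0.01, compared with -0.01, and 14 of 26 lay above 0.

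Among the 26 genes over the minimum mean, the highest H3K79me2 ratio of D546R to WT was that of Psmd3, a lid subunit, with 119 counts in WT, 107 in D544R and 122 in D546R, or 88.4, 110.0 and 159.7 normalised counts. The log2 ratio to WT was 0.85 (0.48 to 1.23), and Psmd3 was the 1 member past a 1.5-fold threshold there (8.89% of all genes were higher and 4.26% lower). The lowest of the 26 was Psmf1, which encodes an inhibitor of the core particle: its normalised counts were 153.7, 147.1 and 110.0, a log2 ratio of -0.48 (-0.87 to -0.11). In D544R against WT the extremes of the 26 were Psme3, an activator subunit of the nucleus, at 0.51 (0.13 to 0.88), and Psmd2, a scaffold of the base, at -0.37 (-0.75 to 0.00). Psmd2 was also highest in D546R against D544R at 0.77 (0.37 to 1.17), and passed 1.5-fold there together with the ATPase gene Psmc5 at 0.65 (0.25 to 1.04). Of all genes 8.02% did so and 4.47% were lower. In D544R against WT no member passed 1.5-fold (0.853% of all genes were higher and 0.517% lower).

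Psmd14, the member with the most H3K79me2 counts, shows how small a difference the deepest genes resolve. It had 1723 counts in WT, 1043 in D544R and 1197 in D546R, or 1280, 1073 and 1567 normalised counts. D546R was highest and D544R lowest, with log2 ratios to WT of 0.29 (fragment interval 0.06 to 0.52) and -0.25 (-0.47 to -0.04). Psmb7 had 462.7, 465.9 and 658.5 normalised counts, and a ratio of 0.51 (0.34 to 0.68) in D546R with 0.01 (-0.17 to 0.19) in D544R.

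By role, the 12 tested genes of the regulatory particle had a median H3K79me2 log2 ratio of 0.31 in D546R against WT, and 10 lay above 0. The 10 tested genes of the core particle had a median of 0.08, with 6 above 0. Of all genes tested 57.6% lay above 0 in D546R against WT. In D544R the medians were -0.14 and 0.01.

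**Figure D2:**
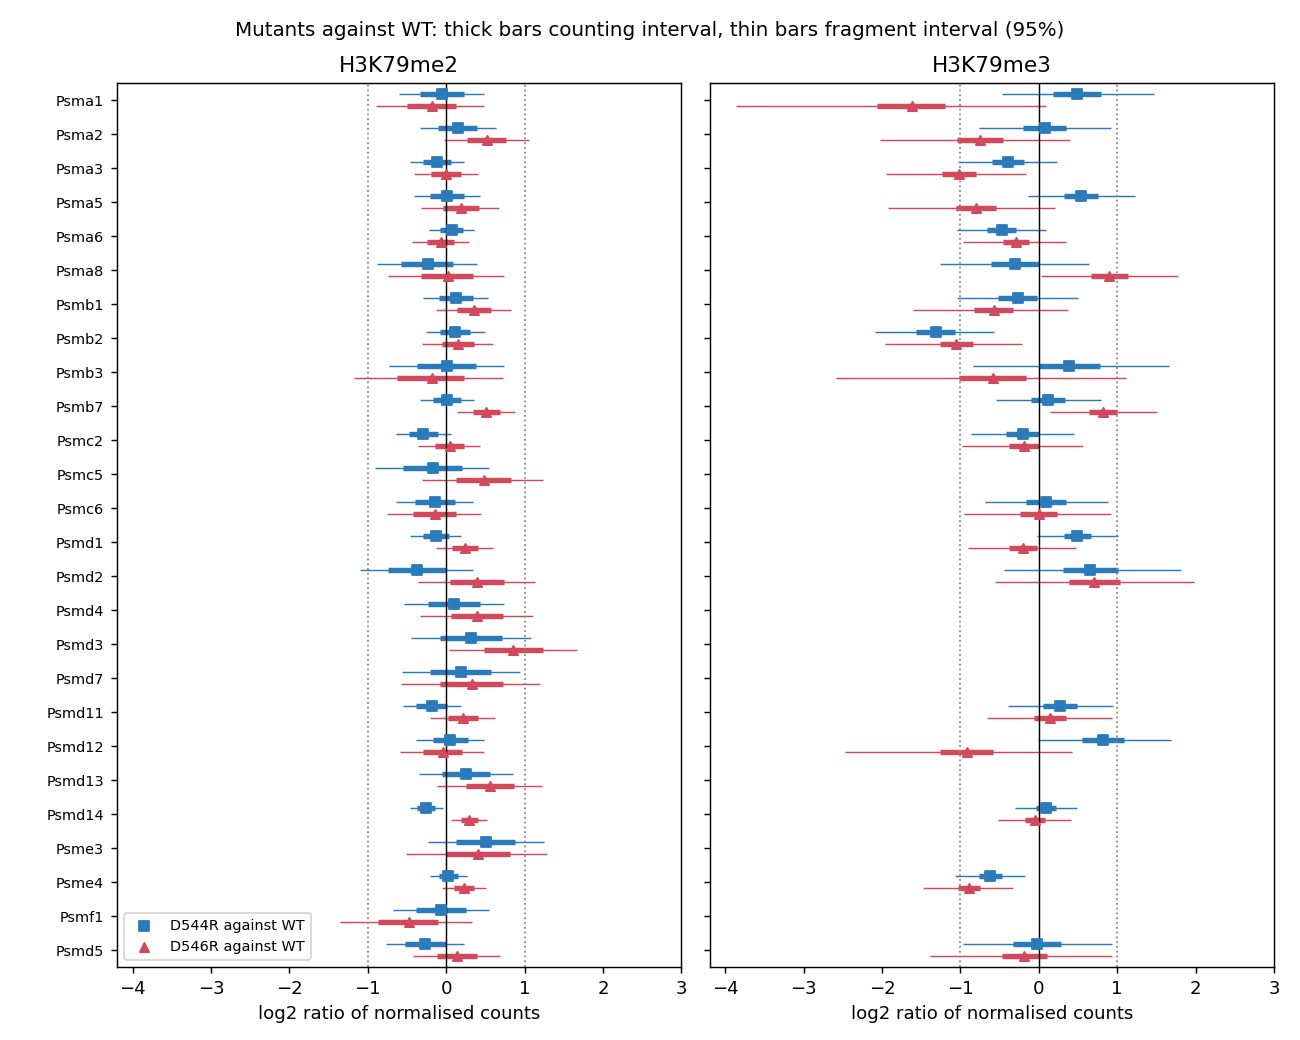
Log2 ratio of normalised counts of D544R (squares) and D546R (triangles) to WT for the proteasome genes with a mean of at least 100, H3K79me2 left and H3K79me3 right, with thick bars for the counting interval and thin bars for the fragment interval (both 95%). In H3K79me2 no gene reaches the dotted 2-fold lines, while in H3K79me3 Psma1, Psma3 and Psmb2 lie below the lower line in D546R, with Psmb2 below it in D544R too.

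H3K79me3 varied more between genotypes, and 9 of the 15 core particle genes had a ratio of D546R to WT below 0, with a median of -0.34. Psma1, Psma3 and Psmb2 passed the 2-fold rule as lower, 3 of 19 members tested, where 8.92% of all genes did. None of 19 was higher, where 6.94% of all genes were. The median log2 ratio was -0.30 for the members and -0.03 for all genes. Of the 19 members 15 lay below 0 and 4 above, where 47.9% of all genes lay above. Of the 10 tested genes of the core particle 8 lay below 0, with a median of -0.67. Of the 5 core genes under the minimum 4 lay above 0, Psma4 at 1.30, Psma7 at 0.79, Psmb4 at 0.73 and Psmb6 at 2.76. The 7 tested genes of the regulatory particle had a median of -0.05, with 5 below 0, and all 17 a median of 0.00, with 9 below 0. With the fragment interval in place of the counting interval the count of lower genes was 2 (5.55% of all genes) and that of higher genes 0 (4.26%).

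Psma1, an alpha subunit gene, had 163 counts in WT, 202 in D544R and 63 in D546R, or 166.0, 231.8 and 53.9 normalised counts of H3K79me3. The D546R library alone was low. Its log2 ratio to WT was -1.62 (-2.07 to -1.19), but the fragment interval ran from -3.87 to 0.10 and so held equality. H3K79me2 at Psma1 was 193.8, 186.2 and 170.2 normalised counts, a ratio of -0.19 (-0.50 to 0.12).

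Psma3, another alpha subunit gene, had 490.9 normalised counts in WT, 374.1 in D544R and 242.2 in D546R. Its log2 ratio in D546R was -1.02, with a counting interval of -1.24 to -0.80 and a fragment interval of -1.95 to -0.17. H3K79me2 at Psma3 gave a ratio of 0.00 (-0.19 to 0.19). Psma3 lay just past the 2-fold line, and just inside it lay Psmd12 at -0.92 and Psme4 at -0.89.

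Psmb2, a non-catalytic beta subunit gene, was the 1 member below the line in both mutants. It had 513 counts in WT, 183 in D544R and 294 in D546R, or 522.5, 210.0 and 251.6 normalised counts. WT stood above both mutants, and both ratios rest on that 1 WT library: -1.05 in D546R (fragment interval -1.97 to -0.22) and -1.31 in D544R (-2.10 to -0.58). The H3K79me2 ratios at Psmb2 were 0.15 (-0.06 to 0.36) and 0.11 (-0.08 to 0.31).

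The size of these differences depended on the reference chosen for scaling. With total counts in place of size factors, Psma1 was the 1 member left below the line in D546R (7.69% of all genes). With edgeR's TMM factors Psmb2 and Psma1 were (8.24%). With the silent list as the reference the median of all genes moved from -0.03 to -0.72, and 10 of 21 members were lower and 0 higher; among all genes 32.6% were then lower and 1.14% higher. The members' median was -0.97 with the silent list, against -0.72 for all genes. A change of reference shifts every ratio of a comparison alike. The distance between the medians could thus change only through the genes that reach the minimum.

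In D544R against WT, Psmb2 was the 1 of 19 members that was lower (3.02% of all genes) and 0 were higher (4.36%). With the fragment interval the counts were again 1 lower (1.66%) and 0 higher (2.92%). The members' median was 0.09, against 0.00 for all genes. Of the 19 members 8 lay below 0 and 11 above, where 49.6% of all genes lay above. The core particle genes had a median of -0.10 and the regulatory particle genes 0.27. Highest of the 19 was Psmd12, a lid subunit, at 0.82 (0.55 to 1.09). Psme4, an activator of the core found in the nucleus, was lower in both mutants without reaching 2-fold: its 1055, 687.3 and 569.9 normalised counts gave -0.62 (-0.77 to -0.47) in D544R and -0.89 (-1.03 to -0.75) in D546R.

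Between the mutants, Psma1, Psma5 and Psmd12 were lower in D546R than in D544R (3 of 19, 8.31% of all genes) and Psma8 was higher (1 of 19, 5.77%). All 4 kept to the rule with the fragment interval, which 5.16% of all genes did as lower and 3.77% as higher. Psma5, an alpha subunit gene, had 317.8 normalised counts in WT, 460.1 in D544R and 182.3 in D546R, a ratio between the mutants of -1.33 (-1.58 to -1.09). Psmd12 had 194.5, 343.1 and 102.7, a ratio of -1.74 (-2.06 to -1.43). At Psma1 it was -2.10 (-2.54 to -1.69). In all 3, WT stood between a higher D544R and a lower D546R.

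Psma8 went the other way. Its H3K79me3 was 224.1 normalised counts in WT, 181.3 in D544R and 417.6 in D546R, a ratio of 1.20 between the mutants (fragment interval 0.30 to 2.13) and 0.90 (0.67 to 1.13) against WT. Per kb it moved from 3.85 and 3.12 to 7.18, where the silent list moved from 3.51 and 4.35 to 5.62. With the silent list as the reference no member was higher in D546R than in D544R (2.21% of all genes were). Psma7, for which Psma8 stands in during sperm formation, had 38.7, 59.7 and 67.6 normalised counts and was under the minimum. Among the 19 genes over the minimum, the next highest ratio of D546R to WT was that of Psmb7, whose 359, 346 and 753 counts gave 0.82 (0.63 to 1.00) against WT. Psmb1, another core beta gene, gave -0.58 (-0.82 to -0.33).

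**Figure D3:**
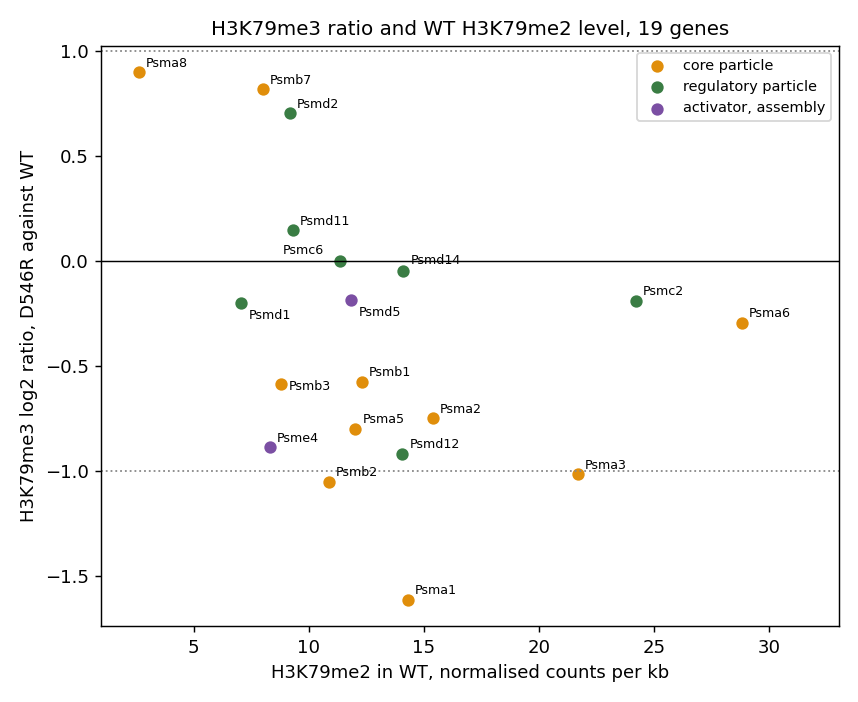
H3K79me3 log2 ratio of D546R to WT (vertical) against the H3K79me2 level in WT, in normalised counts per kb (horizontal), for the 19 proteasome genes with a mean of at least 100, coloured by particle. Genes of the core particle lie at both ends, from Psma1 at -1.62 to Psma8 at 0.90, and Psma8 has the lowest H3K79me2 level.

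Members with a higher H3K79me2 level in WT tended to have the lower H3K79me3 ratio in D546R (Spearman's rho -0.43 over 19 genes, -0.18 over all genes tested), shown in the plot of ratio against level. In D544R rho was -0.16, against -0.19 for all genes. The points are genes of the same libraries, and 1 gene, Psma8, stands apart at the low end.

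The catalytic beta genes separated by form in H3K79me2. Psmb5, Psmb6 and Psmb7 together held 7.98, 8.38 and 11.1 normalised counts per kb in WT, D544R and D546R, and Psmb8, Psmb9 and Psmb10 together 2.60, 2.46 and 3.74, near the median of all genes. The counts behind the immune genes were small, 60, 41 and 49 in all, so that the summed ratio of D546R to WT, 0.53, had a counting interval of -0.05 to 1.09. For the constitutive genes, most of whose counts are those of Psmb7, it was 0.48 (0.32 to 0.64).

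In H3K79me3 the immune genes held 74 counts in WT and 118 in D544R but 0 in D546R, while the constitutive genes held 415, 405 and 859. Psmb7, whose long region overlaps that of Nek6, supplied 359, 346 and 753 of the latter. Psmb5, the counterpart of Psmb8, had 49, 37 and 46 counts, a log2 ratio of D546R to WT of -0.34 (-0.96 to 0.27). Psmb9 had 34, 95 and 0 counts, Psmb10 37, 14 and 0, and Psmb8 3, 9 and 0. With the scale factor of 18.6 for the D546R library, these counts may stand for few fragments, and no fold is given. The fragment interval of Psmb9 reached up to a log2 ratio of 1.59 against WT and of -0.66 against D544R, that of Psmb10 up to 1.40 and 3.68, and that of Psmb8 up to 5.52 against D544R. Equality was thus left out for Psmb9 against D544R alone. Psmb11, the thymic form, had 76, 54 and 10 counts, a log2 ratio of -3.12 (-4.29 to -2.22) in D546R against WT with a fragment interval up to 0.37. Each of these genes was under the minimum mean. With the fragment interval the summed immune genes in D546R had an upper bound of 0.01 on the log2 ratio to WT and of -1.02 to D544R.

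Empty regions were common in that library. Of the 8990 regions under 10 kb, 23.8% held no H3K79me3 count in D546R, against 11.7% in WT and 10.8% in D544R. Of the 18 members under 10 kb 3 were the immune genes at 0, and the other at 0 was Psmg3, an assembly chaperone gene with 54, 27 and 0 counts. Psmb8 and Psmb9 are neighbours that flank Tap1, which codes for a subunit of the peptide transporter, and the Tap1 region overlaps theirs by 1.03 and 1.78 kb. Tap1 itself held 42, 46 and 58 H3K79me3 counts, and 8.86 kb of its region lies outside both. How far the larger share of empty regions in the D546R library bears on the empty immune genes was not tested.

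**Figure D4:**
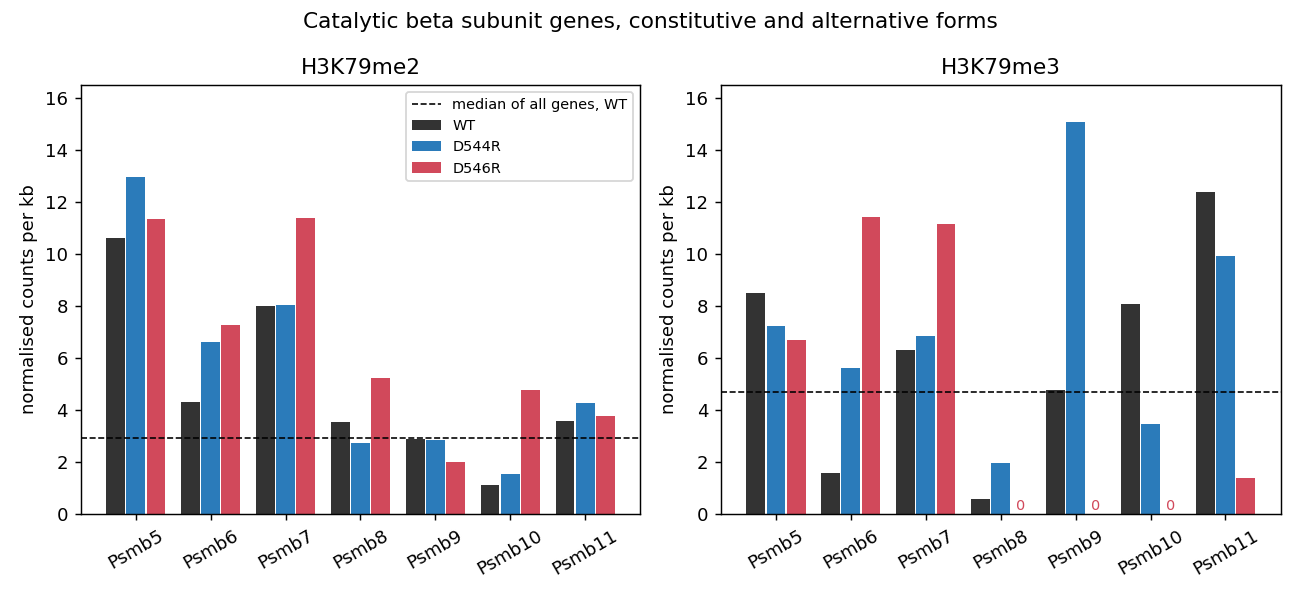
Normalised counts per kb at the constitutive (Psmb5, Psmb6, Psmb7), immune (Psmb8, Psmb9, Psmb10) and thymic (Psmb11) catalytic beta genes, 1 bar per library, for H3K79me2 (left) and H3K79me3 (right), with the median of all genes in WT dashed. The immune genes have 0 H3K79me3 counts in D546R, where Psmb6 and Psmb7 stand at 11.4 and 11.1 and Psmb5 at 6.70.

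Several members with few counts had the opposite order. Psmc4 had 10 H3K79me3 counts in WT, 72 in D544R and 125 in D546R, log2 ratios of 2.96 (2.06 to 4.14) and 3.33 (2.47 to 4.49). Psmb6 had 7, 22 and 60 counts, with 1.76 (0.55 to 3.29) and 2.76 (1.72 to 4.22). Its fragment intervals, -2.24 to 9.33 and -1.01 to 10.3, held equality, while those of Psmc4, 0.19 to 8.36 and 0.44 to 8.78, did not. Both genes were under the minimum, and WT was the low library in both. The ratios of the shorter genes scattered more: their SD in D546R against WT was 2.87 for the 18 members under 10 kb and 1.02 for the 32 longer ones in H3K79me3, and 1.04 and 0.34 in H3K79me2.

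All 6 activator and inhibitor genes had an H3K79me3 ratio of D544R to WT below 0, but only 1 of them, Psme4, reached the minimum mean. Of all genes over the minimum 49.6% lay above 0. Psme1 and Psme2, whose products form an interferon-induced activator, had 8, 3 and 4 and 27, 5 and 8 counts. Their fragment intervals in D544R, -15.6 to 6.85 and -10.8 to 1.93, held equality. Psme3 had 108, 37 and 163 counts, a ratio of -1.36 (-1.95 to -0.82) in D544R and 0.34 (-0.02 to 0.71) in D546R. Its fragment interval in D544R, -3.34 to 0.31, held equality. Psmf1 had 110, 49 and 118 counts, ratios of -0.99 (-1.51 to -0.50) and -0.15 (-0.54 to 0.24). For both, D544R was the low library and WT and D546R were close. Psme2b, a copy of Psme2, had between 1 and 43 counts in any library. Reads of the 2 copies may have been split or shared in the counting, so its values are uncertain.

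Of the assembly genes, Psmd5 was the 1 with enough counts, with 200.6, 197.4 and 176.3 normalised counts of H3K79me3 and ratios of -0.02 (-0.33 to 0.28) in D544R and -0.19 (-0.48 to 0.10) in D546R. Psmg4 had 45, 12 and 23 counts. Psmc3ip, the gene matched by name only, had 6, 68 and 8 H3K79me3 counts and 46, 40 and 30 H3K79me2 counts. Its region overlaps those of Mlx and Fam134c.

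Overlap of regions limits how far a count belongs to a member. Of the 50 members, 25 overlap the region of another gene (50.0%, against 41.1% of all genes), such as Psmc2 with Dnajc2, Psma2 with Mrpl32, Psmb1 with Tbp and Psmb7 with Nek6. Psma1, Psma3, Psmb2, Psma5, Psmd12 and Psma8, the members past the rule, overlap none.

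Other genes of the pathway were taken from a list of 33 factors that act with the proteasome, of which 29 were in the table. They were strongly marked, with a median of 13.8 normalised counts per kb of H3K79me2 in WT. In H3K79me2 0 of 20 tested passed the 2-fold rule in D546R or D544R against WT. Few genes of any kind did: 0.865% were lower and 0.887% higher in D546R, and 0.0112% and 0.0337% in D544R. In H3K79me3, D546R against WT, 4 of 21 were lower (8.92% of all genes) and 2 higher (6.94%). The lower ones were AI314180, the gene of the proteasome scaffold now named Ecpas, at -2.11 (-2.20 to -2.03), Usp14, a deubiquitinase of the proteasome, at -1.59 (-1.82 to -1.37), Zfand5 at -1.29 and the ubiquitin shuttle gene Rad23b at -1.02. The higher ones were Zfand2a at 1.42, whose fragment interval of -0.98 to 4.19 held equality, and Ufd1l, a cofactor of the unfoldase p97, at 1.13. In D544R against WT 0 were lower (3.02% of all genes) and 1 (4.36%), Zfand2a, was higher at 2.79 (fragment interval 1.04 to 5.26). Zfand2a had 28, 174 and 90 H3K79me3 counts in WT, D544R and D546R, and a mean of 101.7. It reached the minimum only through the D544R library, where it was high, so the minimum itself favoured its calls.

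AI314180 had the most H3K79me3 counts of the list. In D544R its H3K79me3 ratio to WT was -0.15 (-0.21 to -0.09) and in D546R the fragment interval was -2.48 to -1.77. Its H3K79me2 ratio in D546R, just short of 2-fold, was -0.93 (-1.01 to -0.85). Between the mutants 4 of 21 genes of the list were lower in D546R (AI314180, Usp14, Zfand5 and Zfand2a) and 0 higher, against 8.31% and 5.77% of all genes. At Zfand2a the fragment interval, -3.17 to 0.09, held equality. Nfe2l1, which codes for the transcription factor that induces proteasome genes, Pomp, a chaperone of the core, and Adrm1, a ubiquitin receptor, were each under the minimum in H3K79me3. Their D546R ratios were 1.08 (0.63 to 1.57), 1.42 (1.00 to 1.86) and 2.64 (2.07 to 3.31). The fragment intervals were -0.71 to 2.99, -0.14 to 3.12 and 0.65 to 5.33, so that equality was left out for Adrm1 alone.

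A list of 13 antigen processing genes, which act downstream of the immunoproteasome, had a median of 4.90 normalised counts per kb of H3K79me2 in WT, 1.69 times that of all genes. In H3K79me3, 2 of 7 tested were lower in D544R than in WT (3.02% of all genes). B2m, the light chain of MHC class I, had a ratio of -1.04 (fragment interval -2.47 to 0.26). Calr, a chaperone of the peptide loading complex, had one of -1.67 (-3.43 to -0.19). Calr had 155, 43 and 129 counts in WT, D544R and D546R, and its mean of 105.9 was just over the minimum. Between the mutants Calr was higher in D546R at 1.15 (0.65 to 1.70), with a fragment interval of -0.69 to 3.11 (5.77% of all genes were higher). Tap2 had 91, 49 and 84 H3K79me3 counts.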

How the data were processed

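The 6 ChIP-seq libraries (3 genotypes, 2 marks, 1 library each) came as raw read counts per gene deposited by the authors, on mm9. Each region ran, per the file headers, from 2 kb ahead of the transcription start as far as the transcript's end. The file names no strand. For Psmb5, Psme2 and Psmb9, on the minus strand, the region's end matched the start site, judged by plus-strand neighbours on the same chromosome. Their regions thus lacked the 2 kb ahead of the start. The other genes on the minus strand were not checked. Per the submitters' processing notes, the tools were Bowtie, bedtools and DESeq, with no version named. Per the labels, several sequencing runs were merged into each library.

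Counts were divided by median-of-ratios size factors, computed within a mark. In H3K79me2 the WT factor was 1.35, that of D544R 0.972 and that of D546R 0.764. In H3K79me3 they were 0.982, 0.872 and 1.17. Log2 ratios used a prior count of 0.5, and counting intervals are exact 95% Clopper-Pearson bounds of the conditional binomial. The 2-fold rule was applied to all 24012 genes, of which 8905 and 10824 reached a mean of 100 in H3K79me2 and H3K79me3. Reads per fragment were estimated from the share of 4591 autosomal regions under 5 kb without a count, taking counts as even per kb. Levels are per kb of region.

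Genes were named where they passed the rule, had the highest or lowest ratio or level of their role, or belonged to the catalytic, testis or activator genes; Psma2, Psmc3, Psmc5 and the overlap examples were picked with their values in view. The members and lists were chosen with earlier results of these data known. Alternatives were other scalings (total counts, edgeR 4.0.16 TMM factors, all 6 libraries together, the silent list), minima, thresholds, prior counts and intervals. Computations used Python 3.11.15, scipy 1.17.1 and R 4.3.3.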

Additional observations from a re-analysis of the deposited data

How the results depend on the processing

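No paired analysis was possible because each genotype and mark had 1 library and the labels carry no replicate numbers; for the same reason no library could be left out. With no minimum mean, H3K79me2 gave 1 member lower and 2 higher in D546R against WT (8.18% and 4.86% of all genes), 1 higher in D544R against WT (2.68%), and 1 lower and 1 higher between the mutants (8.08% and 3.94%). H3K79me3 then gave 13 of 50 lower and 5 higher (18.9% and 17.7% of all genes), 9 and 5 (12.5% and 13.9%), and 11 and 6 (19.6% and 16.3%) in the same comparisons. At 1.5-fold, H3K79me2 gave 1 higher in D546R against WT (8.89% of all genes) and 2 between the mutants (8.02%). H3K79me3 gave 8 of 19 lower and 3 higher (19.8% and 16.8% of all genes), 2 and 2 (11.5% and 12.5%), and 7 and 2 (18.96% and 15.3%). With the silent list as reference, H3K79me2 gave 1 higher in D546R against WT (2.77% of all genes). H3K79me3 then gave 10 lower (32.6%) with a median of -0.97 in D546R against WT, and a median of -0.22 in D544R against WT. Between the mutants it gave 7 lower (17.9%), 0 higher (2.21%) and a median of -0.53. Total counts left 1 lower (7.69%) in D546R against WT in H3K79me3. A mean of at least 300 left 1 lower (3.43%) and 0 higher (1.38%) between the mutants in H3K79me3, where fewer genes were tested. No member's call turned its direction. The median of D544R against WT lay near 0 and took either sign: -0.06 in H3K79me3 at a mean of 300, and -0.06 in H3K79me2 over members that overlap no other region.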
